A study of Mus musculus with 9 samples.

Results

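The 35 genes described here encode the enzymes, regulators and droplet proteins by which cells make fatty acids, store them as glycerolipids and burn them in mitochondria. They were picked out by gene symbol from a table of 16500 genes, and all 35 were found there. The rule used the symbol alone, but the members were chosen with earlier results of these data known. RNA came from primary C57BL/6 mouse CD4+ T cells that had been cultured in RPMI-1640 with serum and infected with a retrovirus, and it was sequenced as paired ends. The 9 libraries fall into 3 groups of 3: cells with the NFAT2-CARIT vector, cells with the NFAT2-CA vector, and cells with the CTRL vector, called Control. NFAT2 is the calcium-activated transcription factor encoded by Nfatc1. CA stands for a constitutively active form, and the RIT changes weaken its joint binding to DNA with AP-1, the Fos and Jun factors. The promoter that drives each insert, the share of cells infected and the hours between infection and harvest are not stated in the labels. Nothing in the labels ties a library to its own animal or culture, so every p-value below speaks of library-to-library spread, which may be technical.

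Fatty acid synthesis starts in the cytosol, where ATP-citrate lyase makes acetyl-CoA, acetyl-CoA carboxylase makes malonyl-CoA and fatty acid synthase joins them to palmitate. Elongases and desaturases then shape the chain, acyl-CoA synthetases activate it, and the acyltransferases and lipins of the glycerolipid pathway build it into phospholipids and triglyceride. Perilipins coat the resulting droplets, lipases empty them, and the carnitine palmitoyltransferases carry acyl-CoA into mitochondria for beta-oxidation. Activated T cells are known to switch on fatty acid synthesis through the SREBP transcription factors, which also drive cholesterol synthesis, whereas memory T cells are known for fatty acid oxidation.

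Values are in CPM, a gene's reads scaled to a fixed library total. Depth per library, worked out from the steps between low values, ran from 19947800 to 38189000 reads, so that 1 CPM stood for 19.9 to 38.2 reads. Nfatc1, the gene the vectors carry, lay at 240.5 to 253.3 CPM with NFAT2-CARIT, 336.1 to 395.5 CPM with NFAT2-CA, and 188.1 to 228.3 CPM in Control, and whether reads of the vector are counted in it is not stated. All 8 markers of CD4 T cells, Cd4 and Cd3e among them, were above 1 CPM in every library and summed to 6399.3 to 6442.1 CPM with NFAT2-CARIT, 6605.1 to 7060.2 CPM with NFAT2-CA and 5722.4 to 5935.2 CPM in Control. None of 6 adipocyte markers was among the genes listed. Of 6 B cell markers 4 were listed, and their sum, nearly all of it Ighm, was 182.0 to 204.6 CPM with NFAT2-CARIT, 205.9 to 211.2 CPM with NFAT2-CA and 411.9 to 422.7 CPM in Control. Of 7 myeloid markers 4 were listed, summing to 15.6 to 16.8, 10.8 to 13.5 and 38.2 to 42.5 CPM in the same order. Of 4 NK cell markers 2 were listed, summing to 0.524 to 1.25, 0.461 to 0.707 and 5.18 to 7.33 CPM. The 2 CD8 markers summed to 22.6 to 24.0, 28.4 to 30.8 and 12.5 to 13.7 CPM, and the only listed marker of erythroid cells and platelets, of 5 sought, reached at most 0.528 CPM. The part of these other cells in the results below was not tested, and in bulk RNA fewer cells of a type and less RNA per cell cannot be told apart.

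Genes at 1 CPM or more in 3 or more libraries were tested, 34 of the 35 members among them. Me1, the cytosolic malic enzyme that supplies NADPH, stayed at 0.0426 to 0.595 CPM over all 9 libraries and was not tested. Calls below are those with a limma adjusted p under 0.05 over all 13096 genes tested. Fold changes named as log2 are on the scale log2(CPM + 1), which understates the change of low genes.

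With NFAT2-CARIT, 18 members were higher and 9 lower than in Control, and with NFAT2-CA 16 were higher and 8 lower. The genes that were higher lay mostly in synthesis, as most tested members do: desaturases (Fads2, Scd1), a synthetase (Acsl3), the lipins and Dgat1. The droplet gene Plin2 was also higher with both vectors, and the oxidation gene Hadhb with NFAT2-CARIT. Lower with both vectors were the droplet, lipolysis and oxidation genes Plin3, Mgll, Abhd5, Cpt1a and Acadm, and the synthetase Acsl1. Acaca, Gpam and Acadvl were called lower with NFAT2-CARIT alone, and Elovl5 and Elovl7 with NFAT2-CA alone. Most genes of these cells differed between the groups, so these counts need the background beside them. With NFAT2-CARIT, 79.4% of members were called, against 70.3% of all genes tested. By direction, 52.9% of members were higher, against 29.2% of all genes, and 26.5% were lower, against 41.1%. With NFAT2-CA, 70.6% of members were called, against 65.5% of all genes. Here 47.1% were higher, against 29.0% of all genes, and 23.5% were lower, against 36.5%. The share called was thus near the background in both comparisons, and the split by direction leaned to higher. The members were chosen with earlier results known, and the part of that choice in this lean was not tested. Of 101 other tested genes of these pathways, 27.7% were higher and 49.5% lower with NFAT2-CARIT, and 32.7% and 42.6% with NFAT2-CA. The median member changed by 0.16 with NFAT2-CARIT and by 0.17 with NFAT2-CA on the log2 scale, where the median of all genes was -0.09 and -0.06. Changes of at least 2-fold were found in 8 members with NFAT2-CARIT (23.5%, against 17.2% of all genes) and in 9 with NFAT2-CA (26.5%, against 13.8%). Both comparisons use the same 3 Control libraries.

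**Figure D1:**
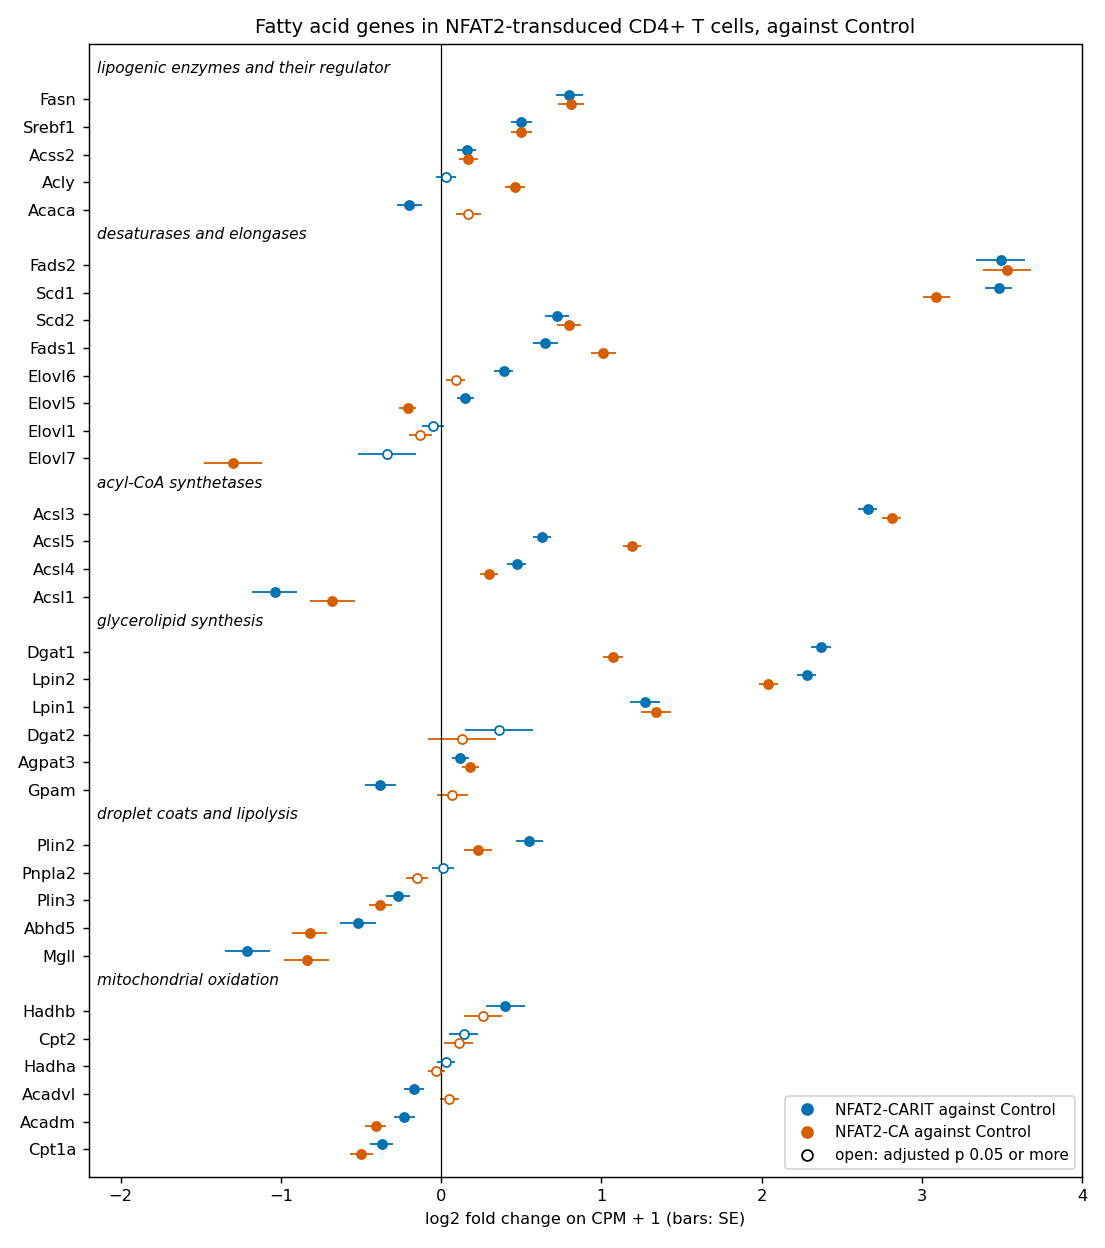
Log2 fold change on CPM + 1 (x axis) of the 34 tested members against Control, grouped by role and drawn as a point with its standard error for NFAT2-CARIT (blue) and NFAT2-CA (orange). Open points had an adjusted p of 0.05 or more. Fads2, Scd1, Acsl3 and Lpin2 lie above 2 with both vectors. Mgll lies lowest with NFAT2-CARIT at -1.21, and Elovl7 lies lowest with NFAT2-CA at -1.3.

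The libraries of NFAT2-CARIT and Control did not overlap for 28 members (82.4%, against 73.1% of all genes), and those of NFAT2-CA and Control for 25 (73.5%, against 68.3%). Control replicate 3 was the lowest of its group for 20 of the 34 members, a share of 58.8%, where its share over all genes was 38.4%. NFAT2-CA replicate 3 was the lowest of its group for 24 members, 70.6%, where its share over all genes was 42.1%. NFAT2-CARIT replicate 3 was the lowest of its group for 14 members, 41.2%, against 29.5% over all genes, so replicate 3 was the one most often lowest in each group. The results that change when a single library is left out are given with each gene.

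The promoters of 4 of the 15 members higher with both vectors are shown as examples, and they do not stand for all 15. Others of the 15, such as Lpin2 and Srebf1, also had matched promoters that are not shown. The sequences are from RefSeq on GRCm38.p6, 5′ to 3′ in the direction of the gene, and capitals mark CCAAT boxes on either strand.
Fasn (chr11:120824548-120824797, minus strand): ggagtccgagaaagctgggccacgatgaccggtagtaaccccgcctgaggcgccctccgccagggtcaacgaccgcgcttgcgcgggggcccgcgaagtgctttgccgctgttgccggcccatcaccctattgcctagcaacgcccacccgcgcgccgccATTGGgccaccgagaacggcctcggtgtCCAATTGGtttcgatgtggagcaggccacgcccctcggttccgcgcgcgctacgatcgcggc
Fads2 (chr19:10101504-10101753, minus strand): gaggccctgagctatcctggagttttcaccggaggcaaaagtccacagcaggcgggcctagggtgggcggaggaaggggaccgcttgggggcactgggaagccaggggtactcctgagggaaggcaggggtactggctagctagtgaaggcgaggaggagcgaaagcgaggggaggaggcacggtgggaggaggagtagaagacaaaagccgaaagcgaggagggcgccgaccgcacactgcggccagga
Acsl3 (chr1:78657575-78657824, plus strand): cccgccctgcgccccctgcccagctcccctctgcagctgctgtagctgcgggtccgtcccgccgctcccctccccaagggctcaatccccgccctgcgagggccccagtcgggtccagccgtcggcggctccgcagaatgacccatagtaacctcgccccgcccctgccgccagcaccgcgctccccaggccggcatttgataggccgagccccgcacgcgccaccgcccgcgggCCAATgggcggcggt
Lpin1 (chr12:16610967-16611216, minus strand): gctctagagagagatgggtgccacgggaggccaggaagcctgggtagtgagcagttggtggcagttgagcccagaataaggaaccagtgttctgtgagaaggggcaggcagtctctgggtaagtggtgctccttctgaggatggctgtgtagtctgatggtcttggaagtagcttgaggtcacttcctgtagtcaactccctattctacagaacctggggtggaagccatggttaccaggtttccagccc
The Fasn promoter held 3 CCAAT boxes, which began 90, 62 and 59 bases before the start, and the last pair overlap. Acsl3 held 1 CCAAT box, 15 bases before its start. Neither Fads2 nor Lpin1 held any, and the sterol response element TCACNCCAC and the E-box CACGTG were in none of these 4 windows. The NFAT core GGAAA, searched on both strands like the others and not marked, was in the Lpin1 window. As the authors list it, Lpin1 reaches 16646967, beyond its GENCODE M21 start at 16610966, so this window lies inside the gene they list. RefSeq promoters were matched for 30 members, 39 windows in all. Those of Scd1, Scd2, Fads1, Dgat1 and Dgat2 were not matched. CCAAT was in 15 of the 39 windows, where 33.8% of 32851 promoters hold it, and GGAAA was also in 15, where 55.6% hold it. CACGTG was in 3 of the 39 (Elovl5, Lpin2 and Mgll), where 6.02% hold it, and TCACNCCAC was in 1 (Acsl1), where 1.05% hold it.

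Among the lipogenic enzymes and their regulator, fatty acid synthase and Srebf1 were higher with both vectors, and ATP-citrate lyase was higher than Control with NFAT2-CA. Fasn had 324.0, 354.9 and 339.6 CPM with NFAT2-CARIT, 348.4, 335.8 and 346.5 CPM with NFAT2-CA, against 210.7, 214.6 and 164.2 CPM in Control. All 6 libraries with a vector for NFAT2 lay above all 3 Control libraries, and the vectors overlapped each other. Its log2 fold change was 0.80 ± 0.083 (SE) with NFAT2-CARIT (adjusted p = 5.2e-07) and 0.81 ± 0.083 with NFAT2-CA (adjusted p = 4.8e-07). Srebf1, which encodes the SREBP factor that switches on lipogenic genes, had a log2 fold change of 0.50 ± 0.067 with each vector (adjusted p = 5.7e-06 for both). Its means were 123.3 ± 3.22 CPM with NFAT2-CARIT, 123.9 ± 3.72 CPM with NFAT2-CA and 87.4 ± 8.30 CPM in Control (SD, n = 3 each). Reads of Srebf1 may include some of the antisense gene Rai1, whose exons overlap it, since the use of strand is not stated.

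Acly, the ATP-citrate lyase, had 176.8, 190.5 and 186.5 CPM with NFAT2-CARIT, 256.2, 250.6 and 236.7 CPM with NFAT2-CA, against 191.6, 182.4 and 167.1 CPM in Control. The NFAT2-CA libraries stood above the other 6, which overlapped. The log2 fold change was 0.03 ± 0.062 with NFAT2-CARIT (adjusted p = 0.63), 0.46 ± 0.062 with NFAT2-CA (adjusted p = 6.7e-06) and -0.42 ± 0.062 between NFAT2-CARIT and NFAT2-CA (adjusted p = 9.5e-05). Acaca, the acetyl-CoA carboxylase that makes malonyl-CoA for fatty acid synthesis, averaged 18.6 ± 1.42 CPM with NFAT2-CARIT, 24.2 ± 0.775 CPM with NFAT2-CA and 21.5 ± 0.552 CPM in Control. Between the vectors it was lower with NFAT2-CARIT, by -0.37 ± 0.077 (adjusted p = 0.0018). Its fall against Control with NFAT2-CARIT, at -0.20 (adjusted p = 0.027), did not pass without NFAT2-CARIT replicate 3 (-0.14, adjusted p = 0.12) or without Control replicate 1 (-0.19, adjusted p = 0.078), nor with TMM factors (-0.13, adjusted p = 0.17) or quantile normalization (-0.10, adjusted p = 0.26). Its value with NFAT2-CA was 0.17 (adjusted p = 0.066), which passed with TMM factors (0.23, adjusted p = 0.021) and quantile normalization (0.21, adjusted p = 0.032).

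Acss2, which makes acetyl-CoA from acetate, had small rises of 0.16 with NFAT2-CARIT (adjusted p = 0.021) and 0.17 with NFAT2-CA (adjusted p = 0.016). With NFAT2-CARIT the rise did not pass without NFAT2-CARIT replicate 1 (0.16, adjusted p = 0.058), NFAT2-CARIT replicate 2 (0.17, adjusted p = 0.051) or Control replicate 2 (0.12, adjusted p = 0.11). With NFAT2-CA it did not pass without NFAT2-CA replicate 1 (0.15, adjusted p = 0.07) or Control replicate 2 (0.13, adjusted p = 0.09). Exons of Ggt7 and Gss lie antisense to Acss2, so part of its reads may be theirs. In counts, the 5 tested lipogenic genes had 3 higher and 1 lower with NFAT2-CARIT, and 4 higher and none lower with NFAT2-CA. Of all genes tested, 29.2% were higher and 41.1% lower with NFAT2-CARIT, and 29.0% and 36.5% with NFAT2-CA.

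Fads2 and Scd1 had the largest log2 fold changes of all members. Fads2, the desaturase that starts the conversion of essential fatty acids to longer polyunsaturated ones, had 34.8, 32.9 and 33.2 CPM with NFAT2-CARIT, 36.4, 35.4 and 31.7 CPM with NFAT2-CA, against 2.46, 1.26 and 2.71 CPM in Control. Control was low in every library, the groups did not overlap with it, and the mean was 15.7-fold higher with NFAT2-CARIT and 16.1-fold higher with NFAT2-CA. The log2 fold changes were 3.49 ± 0.15 (adjusted p = 6.6e-11) and 3.53 ± 0.15 (adjusted p = 7.0e-11). Its neighbour Fads1, the next desaturase of the same route, had 33.7, 36.5 and 37.0 CPM with NFAT2-CARIT, 49.3, 45.5 and 43.6 CPM with NFAT2-CA, against 24.1, 23.1 and 20.2 CPM in Control. Here the groups formed 3 separate levels, highest with NFAT2-CA. The log2 fold change of Fads1 was 0.65 ± 0.078 with NFAT2-CARIT (adjusted p = 1.6e-06), 1.01 ± 0.078 with NFAT2-CA (adjusted p = 9.4e-09) and -0.36 ± 0.078 between the vectors (adjusted p = 0.0026).

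Scd1, a stearoyl-CoA desaturase that makes monounsaturated fatty acids and a well-known SREBP target in liver, had 92.9, 95.5 and 95.7 CPM with NFAT2-CARIT, 79.4, 71.8 and 65.5 CPM with NFAT2-CA, against 8.20, 8.12 and 6.58 CPM in Control. The 3 groups did not overlap, and NFAT2-CARIT was highest. The mean was 12.4-fold higher with NFAT2-CARIT (log2 fold change 3.48 ± 0.084, adjusted p = 5.2e-15) and 9.46-fold higher with NFAT2-CA (3.09 ± 0.084, adjusted p = 2.3e-14), and the vectors differed by 0.39 ± 0.084 (adjusted p = 0.0024). Its relative Scd2, known chiefly from brain, had 1621.7, 1720.4 and 1676.5 CPM with NFAT2-CARIT, 1858.3, 1724.3 and 1723.9 CPM with NFAT2-CA, against 1093.0, 1081.3 and 878.6 CPM in Control. Control lay below both vectors, with replicate 3 lowest. The log2 fold change of Scd2 was 0.72 ± 0.075 with NFAT2-CARIT (adjusted p = 2.7e-07) and 0.80 ± 0.075 with NFAT2-CA (adjusted p = 9.0e-08). How reads that match both Scd genes were assigned is not stated.

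Elongases, which add carbon units to the chain, changed less and not in one direction. Elovl5, which lengthens polyunsaturated fatty acids, had 218.2, 217.3 and 225.5 CPM with NFAT2-CARIT, 177.2, 165.4 and 170.6 CPM with NFAT2-CA, against 196.9, 197.5 and 201.4 CPM in Control. Control lay between the vectors with no overlap. NFAT2-CARIT was 0.36 ± 0.052 above NFAT2-CA on the log2 scale (adjusted p = 8.3e-05). Against Control, NFAT2-CA was lower by -0.21 ± 0.052 (adjusted p = 0.0019) and NFAT2-CARIT higher by 0.15 ± 0.052 (adjusted p = 0.018). The NFAT2-CARIT call did not pass without NFAT2-CARIT replicate 3 (0.13, adjusted p = 0.064), Control replicate 1 (0.14, adjusted p = 0.05) or Control replicate 2 (0.15, adjusted p = 0.051), nor with quantile normalization (0.12, adjusted p = 0.054).

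Elovl6, which lengthens palmitate to stearate, rose by 0.39 with NFAT2-CARIT (adjusted p = 2.1e-05) and had 0.09 with NFAT2-CA (adjusted p = 0.20). NFAT2-CARIT was higher than NFAT2-CA by 0.30 (adjusted p = 0.0013). Elovl7, an elongase of long saturated chains, was low in all groups, with 3.30, 4.91 and 4.56 CPM with NFAT2-CARIT, 2.45, 1.59 and 1.14 CPM with NFAT2-CA, against 4.55, 5.89 and 6.46 CPM in Control. The NFAT2-CA libraries were the lowest 3, while NFAT2-CARIT and Control overlapped. Elovl7 fell by 1.30 ± 0.18 on the log2 scale with NFAT2-CA (adjusted p = 1.1e-05), had -0.34 ± 0.18 with NFAT2-CARIT (adjusted p = 0.11), and was 0.96 ± 0.18 higher with NFAT2-CARIT than with NFAT2-CA (adjusted p = 0.00096). Elovl1, an elongase of very long chains, passed in no comparison, at -0.05 with NFAT2-CARIT, -0.13 with NFAT2-CA and 0.08 between the vectors, with Cdc20 lying antisense to part of it. Of the 8 desaturases and elongases, 6 were higher and none lower with NFAT2-CARIT, and 4 were higher and 2 lower with NFAT2-CA. Over all genes the shares higher and lower were 29.2% and 41.1% with NFAT2-CARIT, and 29.0% and 36.5% with NFAT2-CA.

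**Figure D2:**
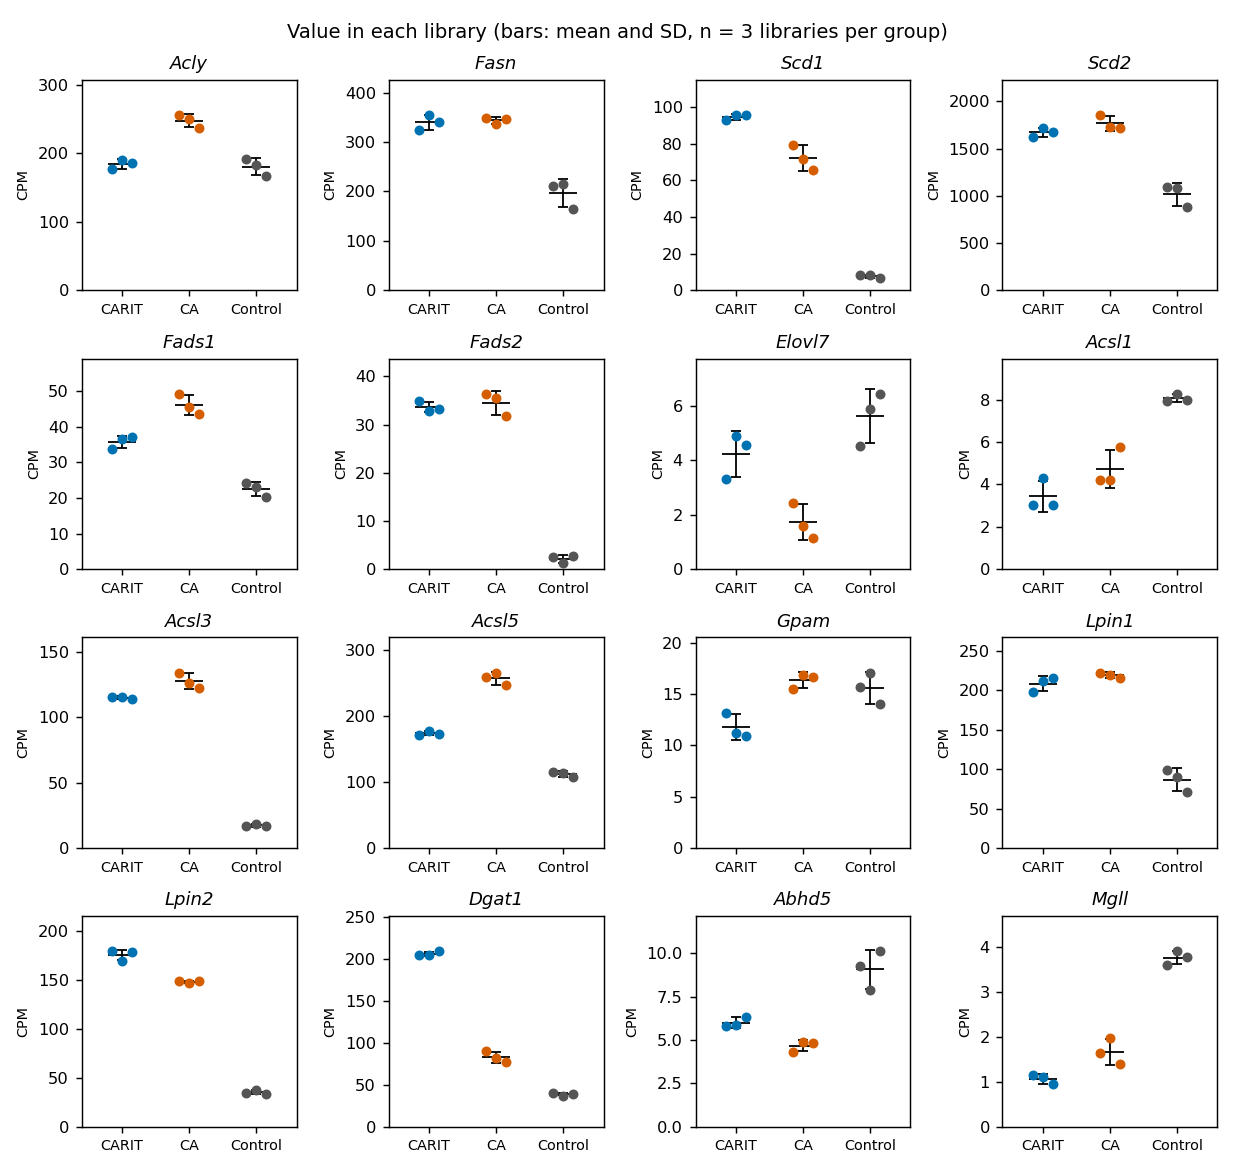
CPM (y axis, from 0) in each library of the 16 members called at an absolute log2 fold change of at least 0.8 against Control or 0.4 between the vectors, with NFAT2-CARIT in blue, NFAT2-CA in orange and Control in grey, and bars for the mean and SD of 3 libraries. Scd1, Fads2, Acsl3 and Lpin2 are far above Control in all 6 NFAT2 libraries, and Dgat1 forms 3 separate levels from 37.3 to 209.3 CPM.

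The long-chain acyl-CoA synthetases attach coenzyme A to free fatty acids before any further use. Acsl3, found in other mammalian cells on the endoplasmic reticulum and on growing droplets, had 115.2, 115.8 and 114.0 CPM with NFAT2-CARIT, 134.2, 126.0 and 122.7 CPM with NFAT2-CA, against 17.1, 18.5 and 16.6 CPM in Control. Every NFAT2 library was far above every Control library. The mean was 6.61-fold higher with NFAT2-CARIT (log2 fold change 2.66 ± 0.060, adjusted p = 2.5e-15) and 7.33-fold higher with NFAT2-CA (2.81 ± 0.060, adjusted p = 1.5e-15). The difference between the vectors, -0.15 (adjusted p = 0.079), passed without Control replicate 3 (-0.15, adjusted p = 0.044). With only the 6 libraries compared, that difference passed too (-0.15, adjusted p = 0.045). Exons of Utp14b overlap those of Acsl3 on the same strand, so some reads may belong to it.

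Acsl5, a synthetase of mitochondria and endoplasmic reticulum, had 171.5, 177.8 and 173.0 CPM with NFAT2-CARIT, 258.7, 265.9 and 246.9 CPM with NFAT2-CA, against 114.9, 114.2 and 107.1 CPM in Control. The groups formed 3 separate levels with NFAT2-CA on top. Its log2 fold change was 0.63 ± 0.055 with NFAT2-CARIT (adjusted p = 3.3e-08), 1.19 ± 0.055 with NFAT2-CA (adjusted p = 1.4e-11) and -0.56 ± 0.055 between NFAT2-CARIT and NFAT2-CA (adjusted p = 1.6e-06). Zdhhc6 lies antisense to part of Acsl5. Acsl4, which prefers arachidonate, averaged 213.5 ± 2.76 CPM with NFAT2-CARIT, 189.7 ± 11.6 CPM with NFAT2-CA and 153.9 ± 4.11 CPM in Control, rises of 0.47 (adjusted p = 1.6e-06) and 0.30 (adjusted p = 0.00022). The difference between the vectors in Acsl4, 0.17 (adjusted p = 0.033), did not pass without NFAT2-CARIT replicate 1 (0.18, adjusted p = 0.07), replicate 2 (0.18, adjusted p = 0.084) or replicate 3 (0.16, adjusted p = 0.089), nor without NFAT2-CA replicate 2 (0.15, adjusted p = 0.12) or replicate 3 (0.14, adjusted p = 0.10), nor without the trend and robust settings (0.17, adjusted p = 0.072).

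Acsl1, the main synthetase of fat and heart, moved the other way, with 3.01, 4.29 and 3.02 CPM with NFAT2-CARIT, 4.20, 4.22 and 5.76 CPM with NFAT2-CA, against 7.95, 8.28 and 8.0 CPM in Control. All 3 Control libraries lay above the 6 NFAT2 libraries. It fell by 1.04 ± 0.14 on the log2 scale with NFAT2-CARIT (adjusted p = 5.7e-06) and by 0.68 ± 0.14 with NFAT2-CA (adjusted p = 0.00052). The vectors differed by -0.37 (adjusted p = 0.062), which passed without NFAT2-CARIT replicate 2 (-0.50, adjusted p = 0.023). The gene model Gm45244 lies antisense to Acsl1.

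Levels of related genes were set side by side per length of exon. The length counts all annotated exons of a gene, so shares between genes depend on that annotation. Summed over the 4 synthetases, the level was 102.0 ± 0.716 CPM per kb with NFAT2-CARIT, 117.7 ± 4.4 CPM per kb with NFAT2-CA and 56.3 ± 1.46 CPM per kb in Control (SD, n = 3). Acsl3 made up 25.9% ± 0.242 of that sum with NFAT2-CARIT, 24.9% ± 0.373 with NFAT2-CA and 7.10% ± 0.362 in Control. Acsl4 took 38.7% ± 0.571 with NFAT2-CARIT, 29.8% ± 0.996 with NFAT2-CA and 50.6% ± 1.00 in Control, and Acsl5 was the largest part with NFAT2-CA, at 44.9% ± 1.37. Among the front-end desaturases, Fads2 made up 57.9% ± 1.94 with NFAT2-CARIT, 52.2% ± 0.888 with NFAT2-CA and 12.3% ± 4.56 in Control. Scd1 stayed the minor stearoyl-CoA desaturase, at 5.95% ± 0.0960 with NFAT2-CARIT, 4.36% ± 0.253 with NFAT2-CA and 0.831% ± 0.000849 in Control. Scd2 had the highest level per length of all members, 306.2 CPM per kb with NFAT2-CARIT, 323.7 CPM per kb with NFAT2-CA and 186.2 CPM per kb in Control. These shares were not tested.

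**Figure D3:**
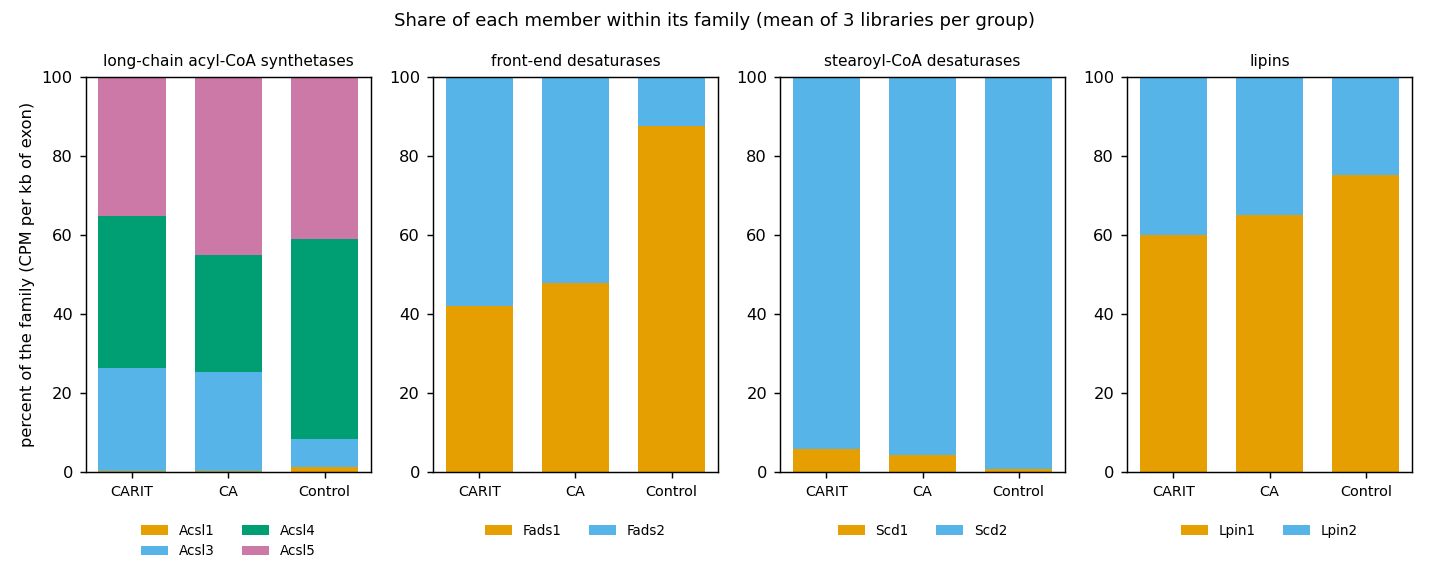
Percent of the summed CPM per kb of exon (y axis, 0 to 100) that each gene took within 4 families, as the mean of 3 libraries for NFAT2-CARIT, NFAT2-CA and Control. Acsl3 and Fads2 take a larger part with either NFAT2 vector than in Control, and Scd2 takes a mean of at least 94.1% of the stearoyl-CoA desaturases in every group.

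In glycerolipid synthesis, both lipins and Dgat1 were higher with both vectors. Lpin1, a phosphatidate phosphatase that makes diacylglycerol and can also act in the nucleus, had 198.2, 212.2 and 214.9 CPM with NFAT2-CARIT, 222.4, 219.3 and 214.9 CPM with NFAT2-CA, against 98.5, 90.2 and 70.7 CPM in Control. Control was lowest in each of its libraries, replicate 3 most of all. The log2 fold change was 1.27 ± 0.092 with NFAT2-CARIT (adjusted p = 2.0e-08) and 1.34 ± 0.092 with NFAT2-CA (adjusted p = 1.3e-08). Lpin2, a second phosphatase of the family, had 179.6, 169.7 and 178.7 CPM with NFAT2-CARIT, 149.0, 147.3 and 148.8 CPM with NFAT2-CA, against 34.4, 38.1 and 33.9 CPM in Control. These were 3 separate levels. Lpin2 rose by 2.28 ± 0.059 with NFAT2-CARIT (adjusted p = 8.8e-15) and by 2.04 ± 0.059 with NFAT2-CA (adjusted p = 4.5e-14), and the vectors differed by 0.24 ± 0.059 (adjusted p = 0.0053). Lpin2 took 40.0% ± 1.54 of the summed lipin level per length with NFAT2-CARIT, 34.9% ± 0.412 with NFAT2-CA and 24.7% ± 2.92 in Control. For Lpin1 the length is that of GENCODE M21, which spans less than the gene the authors list.

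Dgat1, one of the enzymes that complete triglyceride, separated the vectors most. It had 205.1, 205.1 and 209.3 CPM with NFAT2-CARIT, 90.2, 82.4 and 77.0 CPM with NFAT2-CA, against 40.5, 37.3 and 39.3 CPM in Control. The groups did not overlap, and NFAT2-CARIT stood far above the rest. Its mean was 5.29-fold higher with NFAT2-CARIT than in Control (log2 fold change 2.37 ± 0.063, adjusted p = 1.4e-14) and 2.13-fold higher with NFAT2-CA than in Control (1.07 ± 0.063, adjusted p = 3.2e-10). NFAT2-CARIT was 2.48-fold above NFAT2-CA (1.30 ± 0.063, adjusted p = 6.7e-10). Dgat2, which carries out the same step and is not related to it in sequence, was at 0.958 to 2.77 CPM in all libraries, with log2 fold changes of 0.36 with NFAT2-CARIT (adjusted p = 0.13) and 0.13 with NFAT2-CA (adjusted p = 0.60). Without Control replicate 2, its highest Control library, these were 0.66 (adjusted p = 0.0037) and 0.42 (adjusted p = 0.047).

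Gpam, the mitochondrial acyltransferase that starts glycerolipid synthesis, had 13.2, 11.2 and 10.9 CPM with NFAT2-CARIT, 15.5, 16.9 and 16.7 CPM with NFAT2-CA, against 15.7, 17.1 and 14.0 CPM in Control. The NFAT2-CARIT libraries were the lowest 3, and NFAT2-CA overlapped Control. Gpam was -0.38 ± 0.098 with NFAT2-CARIT against Control (adjusted p = 0.0027), 0.07 ± 0.098 with NFAT2-CA (adjusted p = 0.55) and -0.45 ± 0.098 between the vectors (adjusted p = 0.0027). With quantile normalization the fall against Control was -0.24 and did not pass (adjusted p = 0.055). Agpat3, a lysophosphatidate acyltransferase, had small rises of 0.12 with NFAT2-CARIT (adjusted p = 0.048) and 0.18 with NFAT2-CA (adjusted p = 0.0069). The NFAT2-CARIT rise did not pass without NFAT2-CARIT replicate 1 (0.13, adjusted p = 0.087), 2 (0.11, adjusted p = 0.16) or 3 (0.14, adjusted p = 0.058), NFAT2-CA replicate 1 (0.12, adjusted p = 0.066) or 2 (0.12, adjusted p = 0.06), or Control replicate 2 (0.12, adjusted p = 0.11) or 3 (0.11, adjusted p = 0.074). It did not pass either with quantile normalization (0.08, adjusted p = 0.16), no filter (0.12, adjusted p = 0.057), only the 6 libraries compared (0.12, adjusted p = 0.068) or no trend and robust settings (0.12, adjusted p = 0.073). Of these 6 genes, 4 were higher and 1 lower with NFAT2-CARIT, and 4 were higher and none lower with NFAT2-CA. The shares of all genes higher and lower were 29.2% and 41.1% with NFAT2-CARIT, and 29.0% and 36.5% with NFAT2-CA.

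Mgll and Abhd5, which act in droplet breakdown, were lower with both vectors. Mgll, the lipase of monoacylglycerol, had 1.15, 1.10 and 0.952 CPM with NFAT2-CARIT, 1.64, 1.97 and 1.39 CPM with NFAT2-CA, against 3.61, 3.91 and 3.79 CPM in Control. Control was highest throughout, though all values are low. Mgll fell by 1.21 ± 0.14 on the log2 scale with NFAT2-CARIT (adjusted p = 1.0e-06) and by 0.84 ± 0.14 with NFAT2-CA (adjusted p = 6.0e-05). Abhd5, the coactivator of adipose triglyceride lipase, had 5.78, 5.85 and 6.34 CPM with NFAT2-CARIT, 4.31, 4.90 and 4.80 CPM with NFAT2-CA, against 9.24, 7.85 and 10.1 CPM in Control. It again had its highest 3 values in Control, and it fell by 0.52 ± 0.11 with NFAT2-CARIT (adjusted p = 0.00075) and by 0.82 ± 0.11 with NFAT2-CA (adjusted p = 9.7e-06). The vectors differed by -0.36 in Mgll (adjusted p = 0.065), which passed without NFAT2-CA replicate 3 (-0.44, adjusted p = 0.041). In Abhd5 the vectors differed by 0.30 (adjusted p = 0.060), which passed without Control replicate 3 (0.30, adjusted p = 0.049). Both differences also passed without the trend and robust settings (-0.36, adjusted p = 0.013 for Mgll, and 0.30, adjusted p = 0.035 for Abhd5).

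Pnpla2, the adipose triglyceride lipase itself, averaged 131.9 ± 3.16 CPM with NFAT2-CARIT, 117.8 ± 5.24 CPM with NFAT2-CA and 131.5 ± 13.2 CPM in Control. Its log2 fold changes were 0.01 with NFAT2-CARIT (adjusted p = 0.92), -0.15 with NFAT2-CA (adjusted p = 0.061) and 0.16 between the vectors (adjusted p = 0.091). Without Control replicate 3, Pnpla2 passed for NFAT2-CA against Control (-0.23, adjusted p = 0.0034) and for NFAT2-CARIT against NFAT2-CA (0.16, adjusted p = 0.028). With only the 6 libraries compared, Pnpla2 also passed between the vectors (0.16, adjusted p = 0.032). The coat proteins divided. Plin2, which covers the droplets of most cells, rose by 0.55 with NFAT2-CARIT (adjusted p = 3.0e-05) and by 0.23 with NFAT2-CA (adjusted p = 0.029), while Plin3, an exchangeable coat, fell by 0.27 (adjusted p = 0.0037) and by 0.38 (adjusted p = 0.00022). The Plin2 rise with NFAT2-CA did not pass without NFAT2-CA replicate 1 (0.23, adjusted p = 0.061), NFAT2-CA replicate 2 (0.18, adjusted p = 0.12) or Control replicate 3 (0.15, adjusted p = 0.13), nor without the trend and robust settings (0.23, adjusted p = 0.069). Plin2 was 0.32 higher with NFAT2-CARIT than with NFAT2-CA (adjusted p = 0.010), which did not pass without NFAT2-CARIT replicate 1 (0.25, adjusted p = 0.057). Of the 5 droplet and lipolysis genes, 1 was higher and 3 were lower with each vector. Among all genes 29.2% were higher and 41.1% lower with NFAT2-CARIT, and 29.0% and 36.5% with NFAT2-CA.

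Among the mitochondrial oxidation genes no log2 fold change was larger than that of Cpt1a with NFAT2-CA. Cpt1a, the carnitine palmitoyltransferase that admits long chains to mitochondria, had 72.7, 83.0 and 76.1 CPM with NFAT2-CARIT, 73.3, 69.9 and 67.7 CPM with NFAT2-CA, against 103.2, 106.8 and 89.9 CPM in Control, and fell by 0.37 (adjusted p = 0.00027) and by 0.50 (adjusted p = 1.4e-05). Acadm, the medium-chain acyl-CoA dehydrogenase, fell by 0.23 with NFAT2-CARIT (adjusted p = 0.0058) and by 0.41 with NFAT2-CA (adjusted p = 4.4e-05). These were the members of this group that were lower with both vectors. Cpt2, the partner of Cpt1a on the inner membrane, passed in no comparison and stayed at 11.2 to 13.5 CPM. Hadha, the alpha subunit of the trifunctional protein, also passed in none, at 181.8 to 203.0 CPM.

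Acadvl, the very-long-chain acyl-CoA dehydrogenase, fell by 0.17 with NFAT2-CARIT (adjusted p = 0.019), which did not pass without NFAT2-CARIT replicate 3 (-0.14, adjusted p = 0.078) or Control replicate 1 (-0.16, adjusted p = 0.057), nor with TMM factors (-0.09, adjusted p = 0.20). Between the vectors it was also lower with NFAT2-CARIT, by -0.22 (adjusted p = 0.011), which did not pass without NFAT2-CA replicate 1 (-0.18, adjusted p = 0.065), and Dvl2 lies antisense to much of its exon length. Hadhb, the beta subunit of the trifunctional protein, rose by 0.40 with NFAT2-CARIT (adjusted p = 0.011), which did not pass without NFAT2-CARIT replicate 3 (0.30, adjusted p = 0.051) or Control replicate 2 (0.33, adjusted p = 0.05). With NFAT2-CA it had 0.26 (adjusted p = 0.077), which passed without NFAT2-CA replicate 2 (0.34, adjusted p = 0.036) or Control replicate 3 (0.34, adjusted p = 0.047). The starts of Hadha and Hadhb lie 85 bases apart on opposite strands. Of the 6 oxidation genes, 1 was higher and 3 were lower with NFAT2-CARIT, and none was higher and 2 were lower with NFAT2-CA. The shares lower were near those of all genes, 41.1% with NFAT2-CARIT and 36.5% with NFAT2-CA, where 29.2% and 29.0% were higher.

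Between the vectors, 9 members were higher and 6 lower with NFAT2-CARIT. The members that were higher were Dgat1, Elovl7, Scd1, Elovl5, Plin2, Elovl6, Lpin2, Acadm and Acsl4, and those that were lower were Acsl5, Gpam, Acly, Acaca, Fads1 and Acadvl. That is 44.1% of the members called, against 28.6% of all genes, with 26.5% higher, against 11.9%, and 17.6% lower, against 16.7%. Dgat1 was the only called member that differed by 2-fold or more on the log2(CPM + 1) scale (2.94%, against 1.68% of all genes). The libraries of the vectors did not overlap for 22 members, 64.7%, against 44.0% of all genes. The Acadm difference, 0.18 (adjusted p just under the threshold), did not pass without NFAT2-CARIT replicate 1 (0.21, adjusted p = 0.063), 2 (0.18, adjusted p = 0.13) or 3 (0.16, adjusted p = 0.14), NFAT2-CA replicate 2 (0.16, adjusted p = 0.15) or 3 (0.17, adjusted p = 0.11), or Control replicate 1 (0.18, adjusted p = 0.062), nor with a pseudocount of 5 (0.17, adjusted p = 0.052), no filter (0.18, adjusted p = 0.064) or no trend and robust settings (0.18, adjusted p = 0.082). Fasn, Srebf1, Acss2, Fads2, Scd2 and Lpin1, all higher than Control with both vectors, differed between the vectors by -0.02, -0.01, -0.01, -0.03, -0.08 and -0.07 on the log2 scale, with standard errors of 0.083, 0.067, 0.059, 0.15, 0.075 and 0.092, and none passed. This does not show that the vectors act alike on them.

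**Figure D4:**
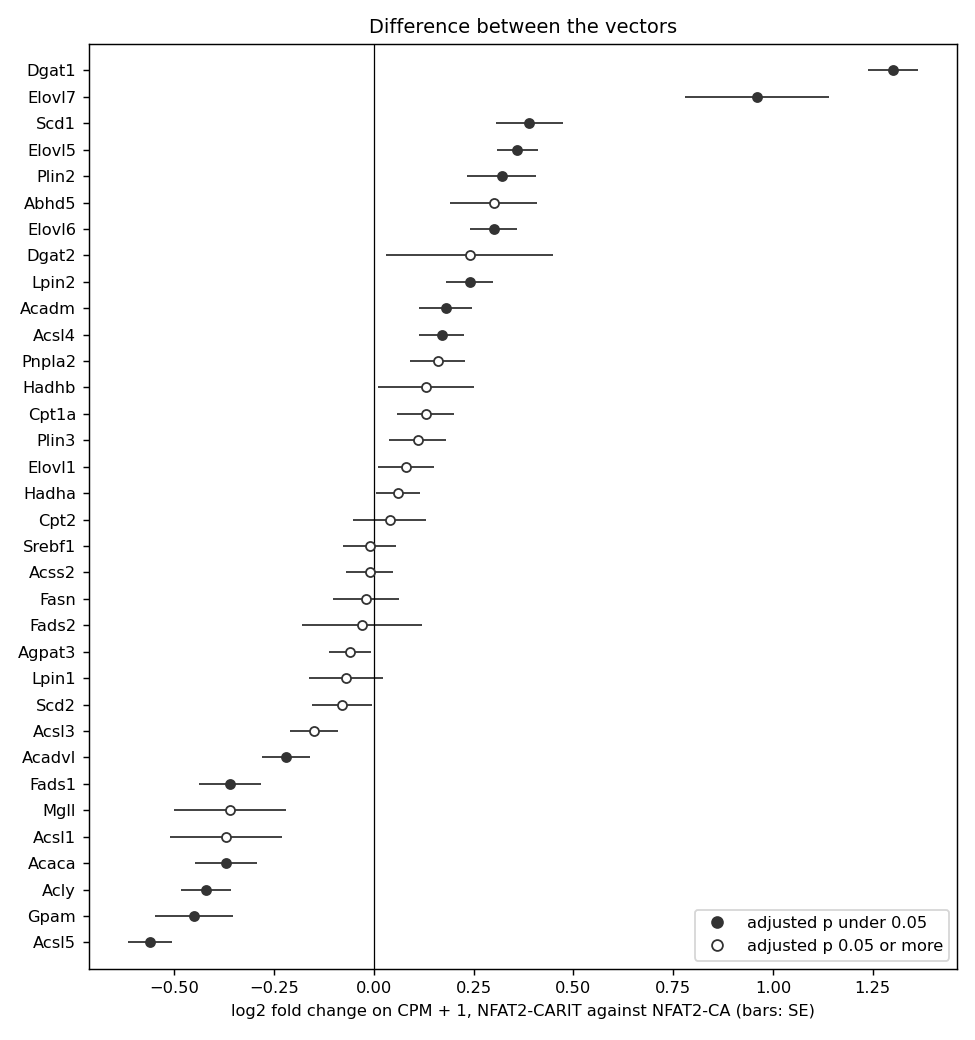
Log2 fold change on CPM + 1 of NFAT2-CARIT against NFAT2-CA (x axis) for the 34 tested members, with standard errors and filled points at an adjusted p under 0.05. Dgat1 at 1.30 stands apart at the top and Acsl5 at -0.56 is lowest.

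Seen by position, 7 of the 35 members (20.0%) lie on chromosome 19, which holds 3.31% of the genes listed: Scd1, Scd2, Fads1, Fads2, Acsl5, Gpam and Cpt1a. On GRCm38 in GENCODE M21, Scd2 spans 44293674 to 44306864 and Scd1 44394455 to 44407879, with 87.6 kb between them. Fads2 spans 10062765 to 10101746 and Fads1 10182888 to 10196877, with 81.1 kb between them. In both neighbouring pairs each gene rose with each vector, and the log2 fold changes of Scd1 and Fads2 were above those of their partners. Gpam and Acsl5, 125.0 kb apart, did not: Acsl5 rose with NFAT2-CARIT and Gpam was lower. Dgat1 lies on chromosome 15 from 76502015 to 76511953, and Acsl3 on chromosome 1 from 78657825 to 78707743.

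The other genes of these pathways were read from 8 lists that do not contain the members. Of 139 listed symbols 111 were in the table and 101 were tested. With NFAT2-CARIT 28 were higher and 50 lower than in Control, and with NFAT2-CA 33 were higher and 43 lower, with medians of -0.20 and -0.13 on the log2 scale. Of these genes 27.7% were higher and 49.5% lower with NFAT2-CARIT, against 29.2% and 41.1% of all genes, and 32.7% higher and 42.6% lower with NFAT2-CA, against 29.0% and 36.5%. The counts of each list below are to be read beside these shares of all genes, and no list was tested as a set. Sterol synthesis, a pathway that shares the SREBP regulators, is described beside them: 20 of 21 genes were higher with NFAT2-CARIT and 21 of 21 with NFAT2-CA, with medians of 1.67 and 1.76. Cyp51, a demethylase of the sterol route, was at 432.8 ± 1.76 CPM with NFAT2-CARIT, 385.2 ± 21.8 CPM with NFAT2-CA and 41.2 ± 1.34 CPM in Control. Msmo1 and Fdps, enzymes of the same route, were higher by 3.00 and 2.85 with NFAT2-CARIT and by 3.08 and 2.79 with NFAT2-CA.

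Among the other lipogenic enzymes and their regulators, 6 were higher and 9 lower of 16 with NFAT2-CARIT, and 6 were higher and 6 lower with NFAT2-CA. Insig1, the sterol-regulated anchor that holds SREBP back, was at 204.4 ± 4.12 CPM with NFAT2-CARIT, 201.5 ± 8.42 CPM with NFAT2-CA and 30.2 ± 1.72 CPM in Control. Scap, the escort that carries SREBP to the Golgi, was at 17.6 ± 2.37, 28.4 ± 0.212 and 47.6 ± 1.45 CPM in the same order, lower by -1.39 and -0.73 on the log2 scale. Me2, the mitochondrial malic enzyme, was lower by -1.22 and -0.71. In fatty acid uptake, binding and activation, 3 were higher and 4 lower of 11 with NFAT2-CARIT, and 5 were higher and 3 lower with NFAT2-CA. The synthetase Acsbg1 was lower by -2.48 and -2.16 and the fatty acid binding protein Fabp5 by -1.69 and -1.13.

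Among other elongation and desaturation enzymes, 3 were higher and 4 lower of 9 with NFAT2-CARIT, and 3 were higher and 3 lower with NFAT2-CA. Degs1, the desaturase of ceramide synthesis, was lower by -1.26 and -1.53, and Hacd3, a dehydratase of the elongation cycle, was higher by 0.85 and 1.03. Fads6, a desaturase family member, was lower by -1.05 with NFAT2-CARIT and had -0.26 with NFAT2-CA (adjusted p = 0.17). Of 11 other glycerolipid enzymes, 5 were higher and 5 lower with NFAT2-CARIT, and 5 were higher and 6 lower with NFAT2-CA. Plpp1, a phospholipid phosphatase, was at 9.32, 9.10 and 8.98 CPM with NFAT2-CARIT, 2.05, 2.24 and 2.09 CPM with NFAT2-CA, against 0.0001, 0.0633 and 0.208 CPM in Control, where 0.0001 is the constant the authors added to a value of 0. Like Dgat1, its 3 groups did not overlap and NFAT2-CARIT was highest, above NFAT2-CA by 1.70 ± 0.13 (adjusted p = 1.4e-07). Gpd1l, a glycerol phosphate dehydrogenase-like gene, was lower by -1.15 and -0.98, and the acyltransferase Agpat4 was higher by 0.94 and 0.91.

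Of 10 other droplet and lipolysis genes, 2 were higher and 6 lower with NFAT2-CARIT, and 1 was higher and 5 lower with NFAT2-CA. Lipa, the lysosomal acid lipase, was lower by -0.79 and -0.88, and Soat2, which esterifies cholesterol, by -0.57 and -0.89. Fitm2, which helps droplets form, was lower by -0.79 with NFAT2-CARIT and had -0.22 with NFAT2-CA (adjusted p = 0.18). Other mitochondrial oxidation genes were divided, with 6 higher and 9 lower of 20 with NFAT2-CARIT and 7 higher and 8 lower with NFAT2-CA. Decr1, a reductase for unsaturated chains, was higher by 1.09 and 0.91 and Crat, the carnitine acetyltransferase, by 0.92 and 0.98, while Acad10 was lower by -1.06 and -0.73.

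Peroxisomal oxidation genes had none higher and 8 lower of 12 with NFAT2-CARIT, and 3 higher and 6 lower with NFAT2-CA. Ehhadh, the peroxisomal bifunctional enzyme, was lower by -1.07 and -1.02. Pecr, a peroxisomal reductase, was lower by -1.07 with NFAT2-CARIT and had -0.02 with NFAT2-CA (adjusted p = 0.95). Decr2, the peroxisomal relative of Decr1, was lower by -0.90 with NFAT2-CARIT and higher by 0.36 with NFAT2-CA. Among the regulators of oxidation, 3 were higher and 5 lower of 12 with NFAT2-CARIT, and 3 were higher and 6 lower with NFAT2-CA. The coactivator Ppargc1b was at 1.52 ± 0.137 CPM with NFAT2-CARIT, 2.12 ± 0.322 CPM with NFAT2-CA and 8.34 ± 0.496 CPM in Control. The nuclear receptor partner Rxra was lower by -1.27 and -0.79, and Pparg, the lipid-sensing receptor, was higher by 0.82 and 0.77. Between the vectors, the other pathway genes had 6 higher and 26 lower of 101 with NFAT2-CARIT, or 3 and 22 without NFAT2-CARIT replicate 2.

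**Figure D5:**
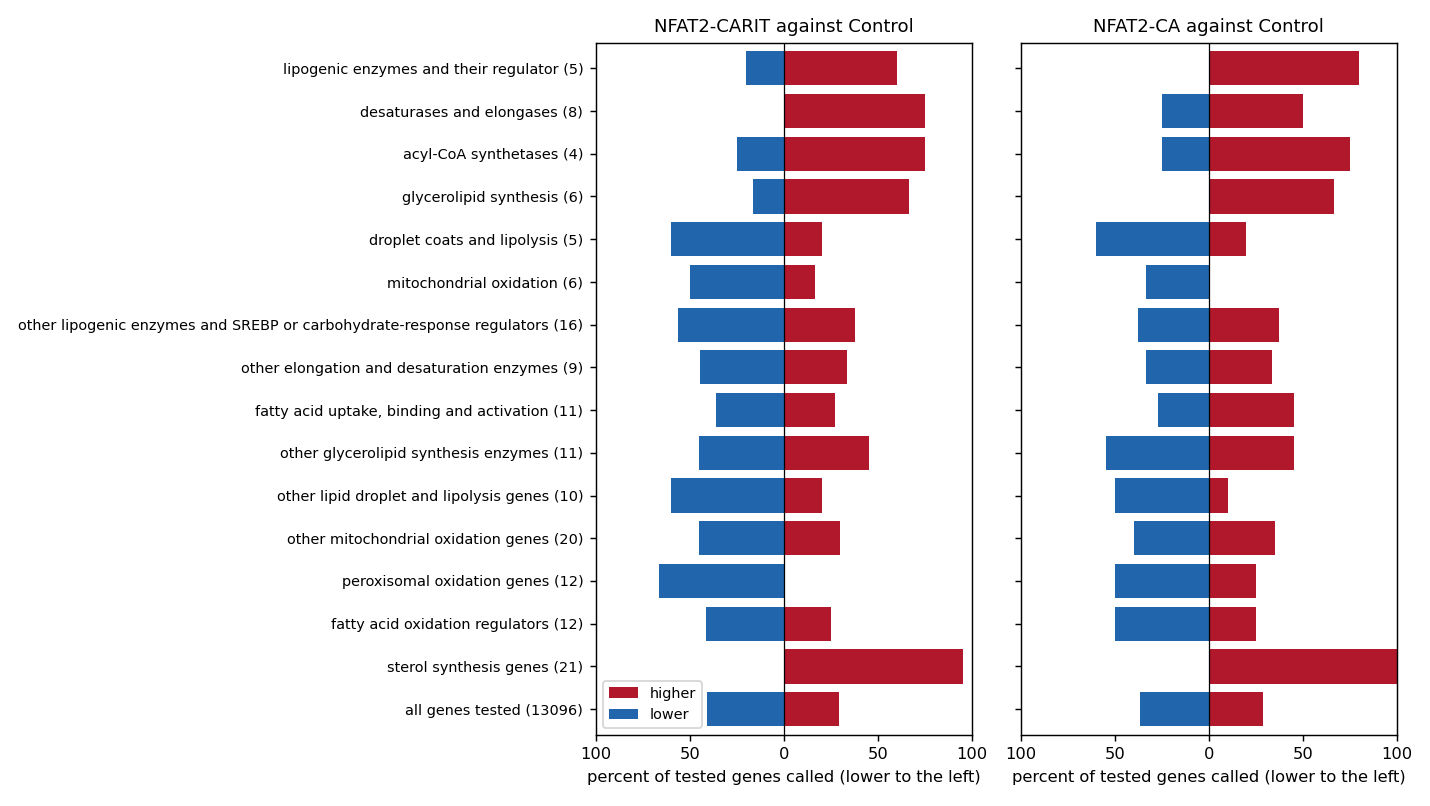
Percent of the tested genes of each group (number in brackets) that were called higher (red, to the right) or lower (blue, to the left) at an adjusted p under 0.05, for NFAT2-CARIT and NFAT2-CA against Control, with all 13096 genes at the bottom. The sterol synthesis bar points to the right alone, with 20 of 21 genes higher with NFAT2-CARIT and 21 of 21 with NFAT2-CA, and the droplet and lipolysis bars point mostly to the left.

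The authors' deposited table, made with DESeq2, called fewer members at a false discovery rate under 0.05. It had 13 members higher and none lower with NFAT2-CARIT, in a table where 25.6% of 16500 genes passed, and 13 higher and 1 lower with NFAT2-CA, where 21.8% passed. For NFAT2-CARIT the authors' deposited table called Fasn, Srebf1, Scd1, Scd2, Fads1, Fads2, Acsl3, Acsl4, Acsl5, Lpin1, Lpin2, Dgat1 and Plin2. For NFAT2-CA the authors' deposited table had the same genes without Plin2 and with Acly, and Cpt1a as the lower one. Between NFAT2-CARIT and NFAT2-CA the authors' deposited table called Elovl5 and Dgat1 higher and Acly and Acsl5 lower, where 2.84% of genes passed. All of these calls had the same direction in limma. In the authors' deposited table the log2 ratio of group means of Fads2 was 3.98 with NFAT2-CARIT and 4.02 with NFAT2-CA. The falls of Mgll, Acsl1, Abhd5 and Elovl7 did not pass in the authors' deposited table, with false discovery rates of 0.10, 0.093 and 0.46 for Mgll, Acsl1 and Abhd5 with NFAT2-CARIT and 0.056 for Elovl7 with NFAT2-CA.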

How the data were processed

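The members and the lists of other genes were chosen with earlier results of these data known. The authors deposited expression values in CPM for 16500 genes in 9 libraries. Each library sums to 1 fixed total, and the authors added 0.0001 to each value, both checked on the file. Their deposited comparison table holds p-values, false discovery rates and the log2 ratio of group means, made with DESeq2 in Partek 10 on build mm10, per the submitters' processing notes. No source used here names an aligner, a quantifier, an annotation or a strand setting, or says whether the authors tested reads or CPM.

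Depth came from the spacing of values up to 1 CPM, of which 81.2% to 84.3% per library were whole reads within 0.1 read, too few to rebuild reads. A floor of 3 reads equals 0.0786 to 0.150 CPM, a limit from counting error alone. The median chi-square per gene between replicates, 1.29 to 3.18, was above sampling noise.

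Log2(CPM + 1) values of all 9 libraries were tested with limma 3.58.1 (R 4.3.3), using group means, moderated variances (trend, robust) and Benjamini-Hochberg adjustment over 13096 genes, those at 1 CPM or more in at least 3 libraries. The procedure was tried on simulated data. Values in every library are given for members called at an absolute log2 fold change of at least 0.8 against Control or 0.4 between the vectors, for Elovl5 and Cpt1a, which were picked after their values were seen, and up to 3 called genes of each other list are named. A gene that this rule names is not reported here. Levels per kb use the union of GENCODE M21 exons. Tried in place of these settings were a pseudocount of 0.5 or 5, a filter of 10 CPM or none, scaling by trimmed means of M-values (TMM) or by quantiles, a fit to the compared 6 libraries alone, a block for the replicate number, the trend and robust settings off, and leaving out each library. Python 3.11.15 (NumPy 2.4.6, pandas 2.3.3, matplotlib 3.10.9) read the files and drew the figures.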

Additional observations from a re-analysis of the deposited data

Results flagged for a closer look

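Elovl5, the elongase of polyunsaturated chains, was called higher with NFAT2-CARIT and lower with NFAT2-CA against the same Control libraries, and the difference between the vectors itself passed, at 0.36 on the log2 scale (limma adjusted p = 8.3e-05). Each NFAT2-CARIT library (217.3 to 225.5 CPM) lay above, and each NFAT2-CA library (165.4 to 177.2 CPM) below, the Control libraries (196.9 to 201.4 CPM). The opposite calls rest on the NFAT2-CARIT rise of 0.15 (adjusted p = 0.018), which did not pass with quantile normalization (0.12, adjusted p = 0.054) or without NFAT2-CARIT replicate 3, Control replicate 1 or Control replicate 2 (0.13 to 0.15, adjusted p = 0.05 to 0.064). In the authors' DESeq2 results neither change against Control passed, with false discovery rates of 0.33 with NFAT2-CARIT and 0.13 with NFAT2-CA. The difference between the vectors did pass there, at 0.018.

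Decr2, the peroxisomal reductase, was also called in opposite directions, with a difference between NFAT2-CARIT and NFAT2-CA of -1.26 on the log2 scale (limma adjusted p = 1.2e-08). Its libraries were at 9.32, 9.42 and 9.82 CPM with NFAT2-CARIT, 22.5, 25.7 and 24.4 CPM with NFAT2-CA, against 18.7, 18.4 and 18.8 CPM in Control.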

How the results depend on the processing

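Of 102 member results (34 genes in 3 comparisons), 65 kept their direction and their side of the threshold under all 18 alternatives, and 37 did not. With a filter of 10 CPM, 4 members were lower with NFAT2-CA, against 8, since it leaves out Elovl7, Acsl1, Abhd5 and Mgll. The other pathway genes higher with NFAT2-CARIT than with NFAT2-CA were 3 to 8 with each library left out, against 6. Signs turned only in results that did not pass. With NFAT2-CARIT against Control, quantile normalization gave Acly -0.03, Hadha -0.02 and Pnpla2 -0.04, TMM gave Elovl1 0.03, and leaving out libraries gave Acly -0.02 to 0.08 and Pnpla2 -0.06 to 0.08 (-0.0043 without NFAT2-CARIT replicate 1). With NFAT2-CA against Control, TMM gave Hadha 0.03, and leaving out libraries gave Hadha -0.06 to 0.00095, Gpam -0.0023 to 0.13 and Dgat2 -0.05 to 0.42. Between NFAT2-CARIT and NFAT2-CA, TMM gave Acss2 0.01, Fasn 0.00072 and Srebf1 0.01, and quantile normalization gave Scd2 0.02. Leaving out libraries gave Acss2 -0.04 to 0.01, Fasn -0.05 to 0.02, Srebf1 -0.03 to 0.01, Fads2 -0.09 to 0.01 and Cpt2 -0.02 to 0.09. The cause was not tested. Some results that did not pass did so under another scaling: Elovl6 with NFAT2-CA (0.15 with TMM), Hadhb with NFAT2-CA (0.32 with TMM, 0.31 with quantile normalization), Cpt2 with NFAT2-CARIT (0.21 and 0.28), Pnpla2 with NFAT2-CA (-0.17 with quantile normalization) and Abhd5 between the vectors (0.32 and 0.41).

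The groups share replicate numbers. Over all genes, deviations of same-numbered libraries from their group means had correlations of -0.069 to 0.259 in 9 pairs, 1 of them over 0.1. The 18 pairs with unlike numbers had -0.279 to 0.233. With 3 libraries per group these correlations cannot decide whether the numbers stand for shared batches or cultures. With the replicate number as a block, members higher and lower were 17 and 9 with NFAT2-CARIT, 17 and 9 with NFAT2-CA and 8 and 6 between the vectors, where Acadm was lost (0.18, adjusted p = 0.064). Agpat3 with NFAT2-CARIT was lost (0.12, adjusted p = 0.061), and Hadhb (0.26, adjusted p = 0.0081) and Pnpla2 (-0.15, adjusted p = 0.04) passed with NFAT2-CA. All genes called numbered 9178, 8562 and 3544. Depth limits members at a few CPM, such as Mgll, Dgat2, Elovl7, Acsl1, Abhd5 and, in Control, Fads2 (1.26 to 2.71 CPM), since 1 CPM is 19.9 to 38.2 reads.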
